A study of Mus musculus with 6 samples.

Results

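The binding sites of C/EBPα and IRF8 were compared in mouse bone marrow-derived macrophages (BMDMs) that had received no IL-4. Each factor was represented by the peak list of 1 chromatin immunoprecipitation sequencing (ChIP-seq) library. The C/EBPα control list held 24486 peaks and the IRF8 control list held 37525, which together made 62011 of the 134964 peaks in the 6 lists of the series. A peak was counted as shared when it overlapped a peak of the other factor by at least 1 bp. By this rule 14220 C/EBPα peaks lay with IRF8 and 10266 without it, and 14236 IRF8 peaks lay with C/EBPα and 23289 without it. The rule used positions alone. Peak scores, annotations, nearest genes, sequence motifs and the JUNB and IL-4 lists had no part in it.

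Both control samples were BMDMs of Wt mice aged 8 to 12 weeks, on a C57BL/6 background per the study's methods. Marrow cells were grown for 6 days in L929 supernatant, a source of macrophage colony-stimulating factor (MCSF). Chromatin was fixed with DSG and formaldehyde, a pair of crosslinkers that also holds proteins that reach DNA through other proteins. The IL-4 lists used below as an outside readout came from the same kind of cells given IL-4 (20 ng/ml) for 1 h. There was 1 library per antibody and condition, so no value below has a replicate. How many mice went into a library, which of the library kits named in the labels was used for it and how deeply it was sequenced were not given in the sources used here. Factor, antibody and library therefore cannot be told apart. No unit is stated for the peak score. It was used as a rank within its own list, except in the alternative that kept peaks scoring at least 10 in both lists. That limit may not mean the same for both factors. Where the scores of both factors at a site are given, they stand side by side and are not on a common scale. Intervals are 95% intervals (Wilson for a share, Newcombe for a difference between 2 shares). Differences within score deciles are means weighted over the deciles, with a normal-approximation interval. The interval of a median was read from the ranked values. All intervals cover counting error over peaks, which are not replicates of a condition, and no p-values are given.

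C/EBPα is a bZIP transcription factor that is needed to form the myeloid lineages and binds as a dimer to a palindromic site. IRF8 is an interferon regulatory factor that directs monocyte and dendritic cell development. It binds DNA weakly alone, and is known to bind together with the ETS factor PU.1 at a composite ETS-IRF element, or with other IRFs at the interferon-stimulated response element (ISRE) of interferon target genes. C/EBPα and PU.1 are both counted among the factors that open macrophage enhancers. As a check of the labels, 6 of 8 macrophage genes had a C/EBPα peak within 10000 bp of the transcription start site (TSS) and 5 of 8 had an IRF8 peak, against 3 and 7 of 20 genes of other lineages. Adgre1 (F4/80) and Mertk had no peak of either factor in that range, and Spi1, which encodes PU.1, had none of IRF8. A peak near a gene says nothing of its expression.

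Short motifs were searched in the 200 bp around each peak centre, on both strands of the RefSeq GRCm38 sequence (mm10). The C/EBP motif was TTGCNNAA, the composite ETS-IRF (PU.1-IRF) motif GGAANNGAA and the ISRE-type motif GAAANNGAA. A match to either of the latter pair counts as an IRF motif below. The ETS motif was AGGAAGT, which can overlap the composite, and the AP-1 motif was TGANTCA. The windows below show what the classes look like at their strongest sites. For 3 classes they are the highest scoring peak and the highest scoring further promoter peak that held a motif, and for C/EBPα peaks without IRF8 a pair of high scoring intergenic peaks. All are on the plus strand, with all matches in capitals. For Gbp7 and Zfp758, whose windows touch an annotated UTR, only 30 bases around the match are shown.
C/EBPα without IRF8, intergenic near Id3, chr4:136117199-136117398: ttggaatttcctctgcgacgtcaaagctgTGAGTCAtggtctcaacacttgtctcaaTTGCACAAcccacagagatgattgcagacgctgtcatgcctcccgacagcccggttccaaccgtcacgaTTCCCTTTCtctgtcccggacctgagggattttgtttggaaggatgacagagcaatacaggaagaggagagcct
C/EBPα without IRF8, intergenic near Rcn1, chr2:105428212-105428411: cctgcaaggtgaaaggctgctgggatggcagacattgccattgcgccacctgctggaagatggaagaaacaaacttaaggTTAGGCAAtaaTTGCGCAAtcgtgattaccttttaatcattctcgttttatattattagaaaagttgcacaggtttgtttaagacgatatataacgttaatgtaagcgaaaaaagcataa
C/EBPα with IRF8, Lrrc40 intron, chr3:158062222-158062421: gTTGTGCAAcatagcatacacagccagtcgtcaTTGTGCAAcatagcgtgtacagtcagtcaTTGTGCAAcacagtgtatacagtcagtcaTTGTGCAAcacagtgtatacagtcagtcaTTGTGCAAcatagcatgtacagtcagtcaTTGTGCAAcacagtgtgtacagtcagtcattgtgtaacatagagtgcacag
C/EBPα with IRF8, Dclre1c promoter, chr2:3423784-3423983: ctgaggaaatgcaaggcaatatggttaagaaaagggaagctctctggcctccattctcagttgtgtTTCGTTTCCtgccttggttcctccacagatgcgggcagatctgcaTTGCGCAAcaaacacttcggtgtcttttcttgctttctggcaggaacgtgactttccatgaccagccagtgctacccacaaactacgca
IRF8 with C/EBPα, intergenic near Gm13498, chr2:50842018-50842217: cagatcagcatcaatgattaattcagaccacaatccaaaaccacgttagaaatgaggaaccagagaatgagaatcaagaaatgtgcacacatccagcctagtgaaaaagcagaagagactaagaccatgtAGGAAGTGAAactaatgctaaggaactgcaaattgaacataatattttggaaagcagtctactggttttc
IRF8 with C/EBPα, Gbp7 promoter, chr3:142530274-142530303: tgtgtgcagtTTCAGTTTCagttctccatc
IRF8 without C/EBPα, Lyn intron 1, nearest TSS 6330407A03Rik, chr4:3724792-3724991: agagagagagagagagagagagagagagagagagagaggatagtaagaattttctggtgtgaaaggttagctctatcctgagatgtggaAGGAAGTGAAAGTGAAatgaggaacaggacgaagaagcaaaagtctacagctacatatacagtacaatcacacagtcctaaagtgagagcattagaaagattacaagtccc
IRF8 without C/EBPα, Zfp758 promoter, chr17:22361449-22361478: gcccgccgctTTCACTTCCTtaattacgtt
The C/EBPα windows at Rcn1 and Dclre1c hold the full palindrome TTGCGCAA. In Rcn1 a second C/EBP match starts 11 bp to its left, and in Dclre1c the palindrome stands beside a composite motif on the minus strand. The Id3 window holds a C/EBP, an AP-1 and an ISRE-type match. The Lrrc40 window, at the highest scoring C/EBPα peak of the list, holds 6 C/EBP matches on the minus strand, which start 29 bp apart except for the 32 bp between the outermost pair on the left. The Lyn window joins an ETS, a composite and an ISRE-type match in 1 run, with the last pair starting 6 bp apart.

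Next, the extent of the overlap was measured. C/EBPα lay with IRF8 at 58.1% of its peaks (57.5% to 58.7%), and IRF8 lay with C/EBPα at 37.9% of its peaks (37.5% to 38.4%). Nearly all of these peaks met a single partner, and 149 C/EBPα and 134 IRF8 peaks met more than 1. When the IRF8 list was cut to its highest scoring 24486 peaks, so that both lists were equally long, the shares were 45.5% and 45.2%. Shared peaks could be matched one-to-one into 14098 pairs. The centres of a pair lay a median of 45 bp apart (quartiles 20 and 83 bp), and 81.7% of pairs had centres within 100 bp. The shorter peak of a pair was covered in full at the median, and only 27 pairs overlapped by 10 bp or less. Of the C/EBPα peaks without IRF8, 2.84% lay within 100 bp of an IRF8 peak and 17.9% within 1000 bp, and of the IRF8 peaks without C/EBPα the shares were 1.44% and 9.95%. Shared peaks were wider, with a median of 298.5 bp against 232 bp for C/EBPα and 314 bp against 243 bp for IRF8. With all peaks set to 200 bp the shares were 55.8% and 36.4%.

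Shared peaks ranked higher in both lists. The median C/EBPα peak with IRF8 had a rank percentile of 59.65 within its list by score (58.8 to 60.4), and the median peak without IRF8 one of 39.2 (38.3 to 40.0). For IRF8 the median percentiles were 63.4 with C/EBPα (62.7 to 64.2) and 41.7 without (41.1 to 42.4). The share of peaks that scored above the list's median was 21.6 points higher in C/EBPα peaks with IRF8 (59.1% against 37.4%, interval of the difference 20.4 to 22.9) and 22.3 points higher in IRF8 peaks with C/EBPα (63.7% against 41.4%, 21.3 to 23.3). The share with a partner rose with each decile of score. In the lowest decile of C/EBPα 43.9% of peaks lay with IRF8 (42.0% to 45.9%), and in the highest decile 87.4% did (86.0% to 88.6%). IRF8 rose from 20.8% (19.5% to 22.1%) to 64.3% (62.7% to 65.8%). The levels of the C/EBPα and IRF8 curves cannot be set against each other, since nearly the same overlaps are divided by lists of unequal length. Among peaks scoring at least 10 in both lists, the IRF8 difference in the share above the median was 13.0 points (11.5 to 14.5). Spearman's rho between the ranks of the partners was 0.138 over 14098 pairs, which share the chromatin of 1 kind of cell. Of these pairs, 2140 were in the highest decile of C/EBPα, 2409 in that of IRF8 and 516 in both.

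**Figure D1:**
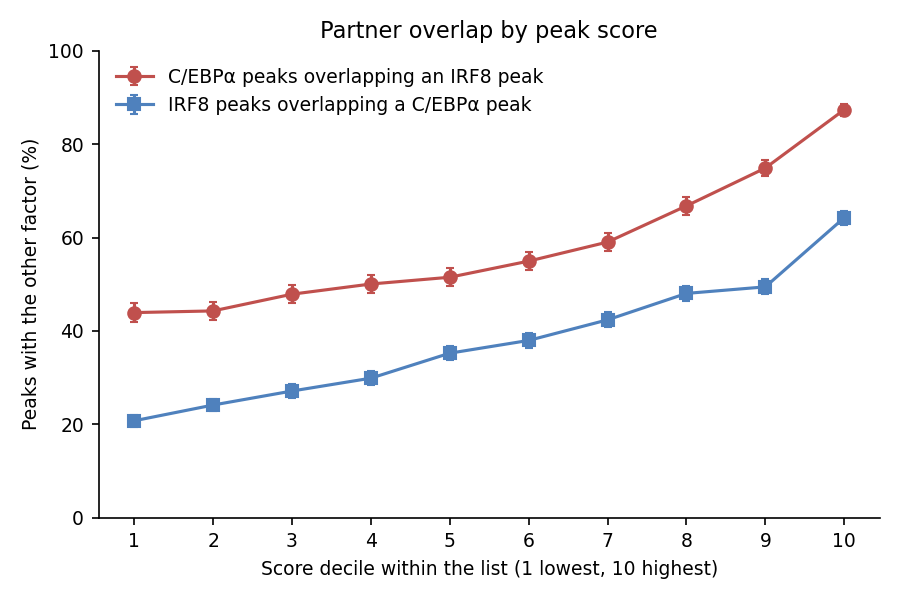
Share of C/EBPα control peaks overlapping an IRF8 peak (red) and of IRF8 control peaks overlapping a C/EBPα peak (blue), in %, by score decile within each list; bars are Wilson 95% intervals over peaks and there is 1 library per factor. C/EBPα rises from 43.9% to 87.4% and IRF8 from 20.8% to 64.3%, over lists of unequal length (45.5% and 45.2% of peaks are shared when the lists are equally long).

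Motifs differed between the classes. The C/EBP motif was found at 42.2% of C/EBPα peaks without IRF8 (41.2% to 43.1%) and at 28.6% of those with IRF8 (27.9% to 29.4%), a difference of -13.55 points (-14.8 to -12.3). In IRF8 peaks it was found at 24.5% of those with C/EBPα (23.8% to 25.2%) and at 7.41% of those without (7.08% to 7.75%), which was below the 9.38% of all 200-bp tiles of the genome. The IRF motifs ran the other way. They were found at 37.2% of IRF8 peaks without C/EBPα and at 28.1% of those with it, a difference of -9.05 points (-10.0 to -8.08). At C/EBPα peaks the IRF motifs stood at 25.3% with IRF8 and 12.0% without (difference 13.3 points, 12.3 to 14.2), the latter below the 13.7% of genome tiles. Within score deciles, the difference in the C/EBP motif at C/EBPα peaks was -20.35 points (-21.6 to -19.1) and that in the IRF motifs at IRF8 peaks was -15.1 points (-16.05 to -14.2). In a window of 100 bp, the difference in the C/EBP motif at IRF8 peaks was 11.25 points, and that in the IRF motifs at C/EBPα peaks was 8.43 points. Over all peaks, the C/EBP and IRF motifs were thus most frequent where their own factor was found alone and intermediate at shared peaks. They were below the genome level where only the other factor was found. At promoter peaks, the C/EBP motif difference of C/EBPα was -4.21 points (-8.63 to 0.281). The IRF motif difference of IRF8 there was -2.65 points (-6.23 to 1.10). Both intervals include 0, so the order of alone and shared peaks was not resolved at promoters. The genome tiles were not matched to the peaks in base composition or open chromatin, and the cause of the shares below their level was not tested.

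The parts of the IRF motif followed the same order over all peaks. The composite ETS-IRF motif was at 23.6% of IRF8 peaks without C/EBPα, 17.3% of IRF8 peaks with it, 15.6% of C/EBPα peaks with IRF8 and 6.10% of C/EBPα peaks without it, against 6.36% of genome tiles. The ISRE-type motif was at 17.8%, 13.4%, 11.9% and 6.40% of these classes, against 7.99% of tiles. At IRF8 promoter peaks the composite difference, with minus without C/EBPα, was 0.342 points (-2.47 to 3.40), which includes 0. The ISRE-type difference there was -3.48 points (-6.23 to -0.488). The ETS motif alone, bound by PU.1 among others, stood at 29.8% of C/EBPα peaks with IRF8 and 16.5% of those without (difference 13.3 points, 12.3 to 14.4), and the difference was 8.75 points in a window of 100 bp. Between the IRF8 classes it was 30.7% with C/EBPα and 27.9% without (2.85 points, 1.90 to 3.80), and with only peaks scoring at least 10 in both lists the difference was 1.07 points (-0.344 to 2.49), an interval that includes 0. Within score deciles it was 1.19 points (0.2135 to 2.17). All classes were above the 4.79% of tiles. AP-1 motifs were found at 18.4% of C/EBPα peaks with IRF8 and 15.5% without, and at 17.9% and 12.3% of IRF8 peaks with and without C/EBPα, against 5.94% of tiles. A C/EBP and an IRF motif in the same window were found in 6.80% of C/EBPα peaks with IRF8, and neither in 52.9%. The shares in C/EBPα peaks without IRF8 were close to these, at 5.15% and 51.0%.

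**Figure D2:**
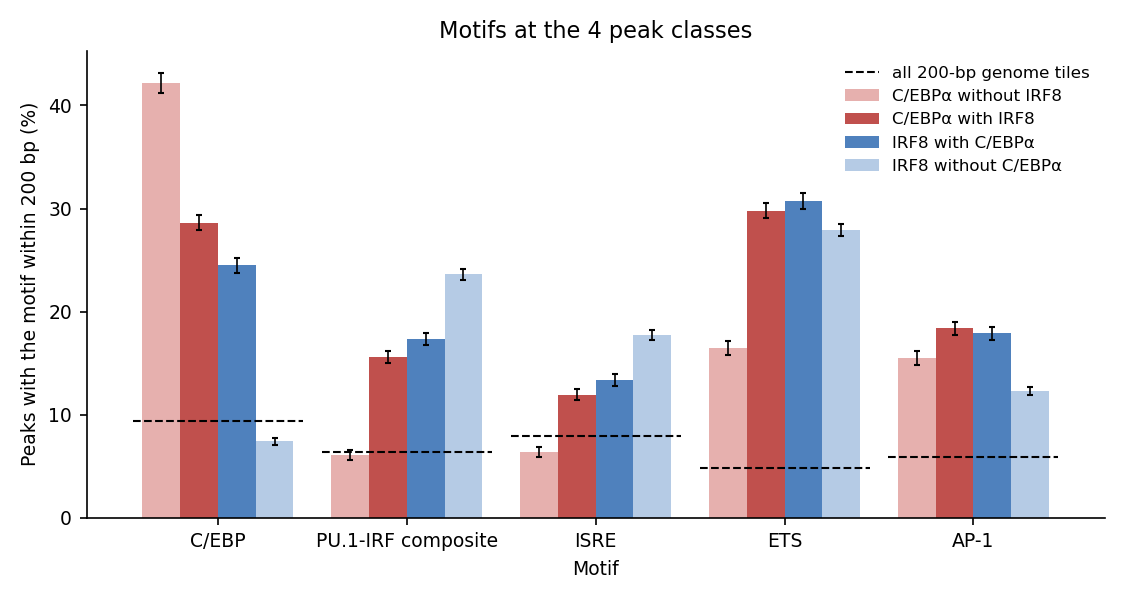
Share of peaks, in %, with each motif in the 200 bp around the centre, for the 4 classes; bars are Wilson 95% intervals and dashed lines are the share of all 200-bp genome tiles. The C/EBP motif falls from 42.2% at C/EBPα peaks without IRF8 to 7.41% at IRF8 peaks without C/EBPα, and the composite motif runs in the opposite direction, from 6.10% to 23.6%.

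Motif shares moved with the score of the factor that the motif belongs to. Among C/EBPα peaks without IRF8, the C/EBP motif rose from 28.5% in the lowest decile (26.2% to 30.9%) to 71.8% in the highest (66.6% to 76.6%). In those with IRF8 it rose from 13.75% to 54.8%, while their IRF motif share stayed between 23.7% and 27.8% in every decile. Among IRF8 peaks without C/EBPα, the IRF motif rose from 23.7% to 66.5%, and in those with C/EBPα from 16.7% to 53.9%. The pairs repeated this within the shared sites. In the 3240 pairs where C/EBPα ranked more than 25 percentile points above IRF8, 45.65% of the C/EBPα windows had a C/EBP motif and 14.6% an IRF motif. In the 3990 pairs where IRF8 ranked more than 25 points higher, the shares were 14.0% and 34.4%. The 6868 pairs of similar rank lay between, at 29.15% and 25.1%. JUNB, by contrast, was most frequent at the pairs of similar rank, with 20.4% (19.4% to 21.3%) against 14.2% and 16.3%. These groups of pairs were not matched for score. JUNB overlapped 9.85% of the lowest and 29.7% of the highest decile of C/EBPα peaks with IRF8. Whether score accounts for the order of the groups was not tested.

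Shared peaks lay less often near a TSS. The promoter-TSS annotation was given to 5.27% of C/EBPα peaks with IRF8 (4.92% to 5.65%) and 9.10% of those without, a difference of -3.82 points (-4.50 to -3.16). IRF8 showed 5.21% with C/EBPα and 8.49% without (-3.28 points, -3.785 to -2.76). With a promoter counted within 1000 bp of the TSS, the differences were -5.86 and -5.58 points, and among peaks scoring at least 10 in both lists the IRF8 difference was -1.97 points. With a TSS counted within 10000 bp, the differences were -7.92 points for C/EBPα (30.1% against 38.0%) and -4.74 points for IRF8 (30.1% against 34.9%, -5.71 to -3.77). At a limit of 50000 bp the C/EBPα difference was -4.045 points (-5.15 to -2.93) and the IRF8 difference was -0.667 points (-1.61 to 0.267), which includes 0. Intergenic peaks were more frequent with the partner, at 45.6% in both lists, against 39.4% of C/EBPα and 41.45% of IRF8 peaks alone. The median distance to the nearest TSS was 22407 bp for C/EBPα with IRF8 (21703 to 23176) and 17211 bp without (16510 to 18003). For IRF8 it was 22372 bp with C/EBPα and 20111 bp without.

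**Figure D3:**
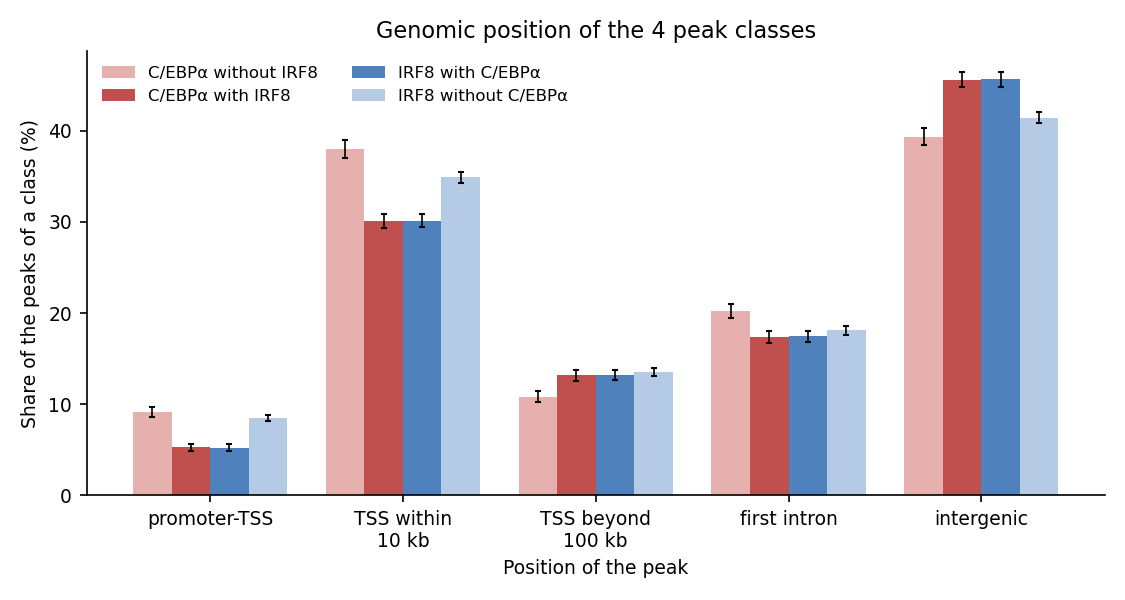
Share of the peaks of each class, in %, annotated as promoter-TSS, first intron or intergenic, or lying within 10 kb or beyond 100 kb of the nearest TSS; bars are Wilson 95% intervals. Promoter peaks make up 9.10% and 8.49% of peaks found with 1 factor alone and 5.27% and 5.21% of shared peaks.

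Seen from the promoters, 44.5% of 1684 C/EBPα promoter peaks lay with IRF8 (42.2% to 46.9%), against 61.6% of intergenic ones. Of 2719 IRF8 promoter peaks 27.3% lay with C/EBPα (25.65% to 29.0%), against 40.2% of intergenic ones. Peaks whose detailed annotation named a CpG island were rare and mostly alone. The promoter peaks named in this report carried the promoter-TSS label in that annotation. CpG islands at promoters may therefore not be counted. There were 111 of C/EBPα, of which 29.7% lay with IRF8, and 252 of IRF8, of which 14.3% lay with C/EBPα. The CpG island share differed by -0.528 points for C/EBPα (0.232% with IRF8 against 0.760% without) and by -0.675 points for IRF8 (0.253% against 0.9275%). In terms of genes, 1618 genes had a C/EBPα promoter peak and 2578 an IRF8 promoter peak, and 782 had both, which was 48.3% of the former and 30.3% of the latter. Over all peaks, 8245 genes were nearest to a peak of each factor, 88.4% of the 9327 C/EBPα genes and 67.8% of the 12167 IRF8 genes.

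Repeats differed between the lists. Simple or low-complexity repeats were the annotation of 4.93% of IRF8 peaks without C/EBPα and 1.48% of those with it (difference -3.45 points, -3.79 to -3.11). In C/EBPα the order was opposite, with 0.999% with IRF8 and 0.536% without (0.463 points, 0.242 to 0.679). The 1149 IRF8 peaks without C/EBPα on such repeats were led by 130 GA-rich, 127 CT-rich, 112 T-rich and 108 A-rich annotations. An ISRE-type motif was held by 36.4% of these 1149 peaks, against 16.8% of the other IRF8 peaks without C/EBPα. The share of such repeats in the genome that match this motif was not counted, so an enrichment cannot be read from these values. Of the 142 C/EBPα peaks with IRF8 on such repeats, 41 lay on the telomere-type repeat (TTAGGG)n and 27 on its complement (CCCTAA)n. With these repeats left out of both lists, an alternative chosen after seeing the data, the overlaps were 57.4% and 38.6%. The difference in the IRF motifs at IRF8 peaks was then -8.21 points (-9.19 to -7.23), against -9.05 points with all peaks.

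The genes nearest to the most peaks of each class were counted next, as a description. Picking genes by their count of 1 class favours a high share of that class. Their shares are therefore no test against the whole list. Shared peaks were most numerous at Zfp386 with 28 C/EBPα peaks with IRF8, followed by Btg1 with 23, 1700016G22Rik with 20, Mir1907 with 19, and Gm20125, 1700019E08Rik and Maf with 18 each. The share of C/EBPα peaks with IRF8 was between 64.3% and 78.3% at these genes, against 58.1% in the whole list. The same genes led for IRF8 peaks with C/EBPα, where Btg1 had 24, and Sgms1 was tied with Gm20125, 1700019E08Rik and Maf at 18. The share of IRF8 peaks with C/EBPα was between 48.6% and 66.7% at them, against 37.9% in the whole list. Of the 28 IRF8 peaks with C/EBPα at Zfp386, only 2 lay within 100000 bp of its TSS, and the farthest peak assigned to it lay 1116350 bp away. At the same limit, the shared C/EBPα peaks numbered 5 at Btg1 and 3 at Maf. Btg1 encodes an anti-proliferative protein and Maf a bZIP factor of macrophages. Within 100000 bp, the genes with most shared C/EBPα peaks were Sgms1 (sphingomyelin synthase 1) with 17, Ctsc (cathepsin C) and Foxp1 with 13 each, Gas7 with 12, and Gcnt1, Gm19510 and Runx1 with 11 each. In that range the C/EBPα peaks without IRF8 numbered 3 at Sgms1 and Ctsc, 12 at Foxp1, 2 at Gas7 and Gm19510 and 6 at Runx1.

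C/EBPα peaks without IRF8 were most numerous at Sp3, which encodes an Sp-family zinc finger factor (chromosome 2, 72936430 to 72980446). Of its 21 C/EBPα peaks, 15 lay without IRF8, so that 28.6% were shared against 58.1% in the list as a whole. Because Sp3 was picked for its peaks without IRF8, a low shared share is partly built in. All 21 lay within 109618 bp of the TSS, and 14 held a C/EBP motif. The same gene had 11 IRF8 peaks, of which 6 were shared. Foxp1, Zfp386 and Lpp followed with 12 each, and Klf4 and Tns3 with 11. These are genes with many peaks, and 52.0% of the C/EBPα peaks at Foxp1 and Lpp lay with IRF8. The share was 70.0% at Zfp386, 54.2% at Klf4 and 42.1% at Tns3. IRF8 peaks without C/EBPα were most numerous at Foxp1, a forkhead factor expressed in monocytes and B cells, with 28 of 41 IRF8 peaks. Runx1, which encodes a haematopoietic runt factor, and Tet2, which encodes a DNA demethylase often mutated in myeloid disease, had 21 each. Elmo1 (an engulfment adaptor), Klf4, Marcks and Pik3r1 had 20 each. The share of IRF8 peaks with C/EBPα was between 28.6% and 41.2% at these genes, Pik3r1 not counted, against 37.9% in the whole list. Foxp1 and Klf4 were among the leading genes of both classes without the partner, and each also had 13 C/EBPα peaks with IRF8. At Klf4, 1 of the 11 C/EBPα and 1 of the 20 IRF8 peaks without the partner lay within 100000 bp.

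The named gene groups were compared by the share of their peaks that met the partner. Interferon-stimulated genes had the lowest share of IRF8 peaks with C/EBPα of the 12 lists. Of 38 listed genes 36 were nearest to an IRF8 peak and 18 to a C/EBPα peak. Over all 13249 genes nearest to any peak, 12167 had an IRF8 peak and 9327 a C/EBPα peak. That base leaves out genes without a peak. Of their 93 IRF8 peaks 23 lay with C/EBPα, 24.7% (17.1% to 34.4%), against 37.9% over all genes. At promoters, 29 IRF8 peaks fell on these genes, 9 with and 20 without C/EBPα. The share with C/EBPα there was 31.0% (17.3% to 49.2%), close to the 27.3% of IRF8 promoter peaks over all genes. An IRF8 promoter peak with no C/EBPα promoter peak was found at 18 of the 38 genes and the reverse at 0, against 1796 and 836 of the 13249 genes nearest to any peak. The ISRE-type motif stood in 17 of the 20 IRF8 promoter peaks without C/EBPα (85.0%, 64.0% to 94.8%) and in 6 of the 9 with it, against 15.9% of all IRF8 promoter peaks without C/EBPα. All 29 overlapped an IRF8 peak after IL-4.

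Among single interferon genes, chosen here after their values were seen, Isg15 (a ubiquitin-like modifier) had 1 IRF8 peak, at its promoter, with a score of 115 and no C/EBPα peak. Oas1a, Oas2 and Oas3, which encode sensors of double-stranded RNA, each had 1 IRF8 promoter peak and no C/EBPα peak. Ddx58, which encodes the RNA sensor RIG-I, had 6 IRF8 peaks and none of C/EBPα. By the number of peaks of both factors, Parp14 (5 C/EBPα and 4 IRF8 peaks), Gbp5 (4 and 5) and Socs1 (4 and 5) were among the highest of the list. Parp14 and Gbp5 had 2 and 3 shared C/EBPα peaks, while Socs1, an inhibitor of cytokine signalling, had 0. Gbp7, a guanylate-binding GTPase gene, had the highest scoring IRF8 promoter peak of the shared class, at 227, over a C/EBPα peak of 60.95.

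Of 15 MHC and antigen presentation genes 14 were nearest to an IRF8 peak and 6 to a C/EBPα peak, against 12167 and 9327 of all 13249. Of their 33 IRF8 peaks 30.3% lay with C/EBPα (17.4% to 47.3%), an interval that includes the 37.9% of all genes. The single genes named here were chosen after their values were seen. H2-K1 (MHC class I), B2m (its light chain), Tap1 and Tap2 (the peptide transporter) and Psmb8 and Psmb9 (immunoproteasome subunits) each had an IRF8 promoter peak and no C/EBPα peak at all. H2-D1, also MHC class I, differed from these, with a shared promoter peak whose C/EBPα score was 5.11. Ciita, the transactivator of MHC class II genes, had 5 C/EBPα peaks that were all shared. Cd74, the invariant chain, had 5 C/EBPα peaks of which 4 lay without IRF8. The highest scoring IRF8 promoter peaks without C/EBPα included H2-Q7 (score 251) and H2-Q5 (217), class I genes. These and H2-K1 have near-identical copies, so that reads there may not belong to a single gene.

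Genes of macrophage effector functions showed the opposite balance in their IRF8 peaks. Fc receptor and C-type lectin genes had 55 IRF8 peaks, of which 63.6% lay with C/EBPα (50.4% to 75.1%). Myeloid receptor and granule genes had 60.6% of 66 (48.55% to 71.5%), lysosome and phagocytosis genes 58.0% of 119 (49.0% to 66.5%), inflammatory genes 51.7% of 145 (43.65% to 59.7%) and lipid handling genes 51.4% of 70 (39.95% to 62.75%). All of these intervals lay above the 37.9% of all genes. Peaks of 1 gene are neighbours and are not independent, so the intervals are too narrow. For C/EBPα, lysosome and phagocytosis genes had 71.1% of 97 peaks shared (61.45% to 79.2%) and inflammatory genes 67.6% of 111 (58.4% to 75.6%), against 58.1% of all genes. High C/EBPα shares were not particular to effector genes. MHC and antigen presentation genes had 71.4% of 14 (45.35% to 88.3%) and genes of other lineages 69.2% of 13 (42.4% to 87.3%). Interferon-stimulated genes had 60.5% of 38 (44.7% to 74.4%), and myeloid receptor and granule genes only 58.0% of 69 (46.2% to 68.9%). All 22 lysosome and phagocytosis genes had a co-bound peak, against 6748 of the 13249 genes. They also had more peaks, with a median of 3.5 C/EBPα and 5 IRF8 peaks per gene against 1 and 2 over all genes. The member with most peaks, Ctsc, had 15 of 19 C/EBPα peaks shared, Lgmn (legumain) 6 of 7 and Cybb (the catalytic NADPH oxidase subunit) 4 of 7.

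**Figure D4:**
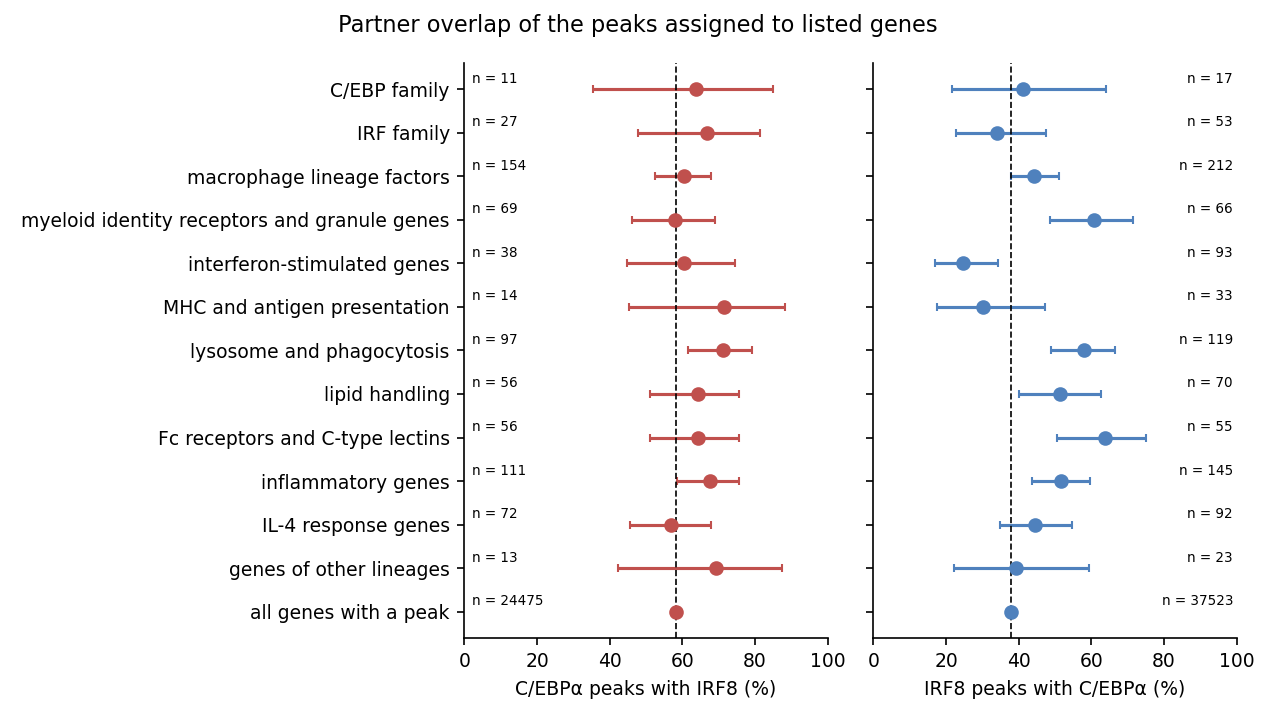
Share of the C/EBPα peaks (left) and IRF8 peaks (right) assigned to 12 gene lists that overlap a peak of the other factor, in %; points are shares, bars Wilson 95% intervals, n the number of peaks, and the dashed line the share over all genes. IRF8 peaks at interferon-stimulated genes lie at 24.7% and those at Fc receptor and C-type lectin genes at 63.6%, on either side of 37.9%.

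Among the Fc receptor and lectin genes, and chosen after their values were seen, Clec7a (Dectin-1, a receptor for fungal glucan), Clec5a and Clec4e (Mincle) had only shared peaks of either factor, with 2, 3 and 1 pairs. The genes of that list with most peaks, Fcgr2b and Fcgr4, had 4 shared C/EBPα peaks each and 3 without IRF8, and Clec4d had 4 and 2. Lyz1 (lysozyme, with the close copy Lyz2 beside it) had 5 C/EBPα peaks, of which 4 were shared, and its strongest, at -9145 bp from the TSS (negative values are upstream), was the second highest of the shared class with a score of 230 over an IRF8 peak of 127. Csf1r, the receptor for MCSF, had 10 C/EBPα peaks, of which 6 lay without IRF8. Csf2ra, a subunit of the GM-CSF receptor, had 3 of 5 shared and Ccr2, the receptor for Ccl2, had 4 of 5. Cx3cr1 and Cd14 had 4 C/EBPα peaks each, all shared. Inflammatory genes had co-bound peaks at 23 of 26 genes, with a median of 4 C/EBPα and 5 IRF8 peaks per gene. Over all genes, 6748 of 13249 had a co-bound peak, with medians of 1 and 2. Tnfaip3 (an inhibitor of NF-κB) had 8 of 11 C/EBPα peaks shared, Fos 6 of 8 and Nfkb1 4 of 7. For lipid handling, Abca1 (cholesterol efflux) and Cd36 (a scavenger receptor) had 6 of 9 shared and Msr1 6 of 6. Among IL-4 response genes, 56.9% of 72 C/EBPα peaks and 44.6% of 92 IRF8 peaks were shared, and the intervals of both (45.4% to 67.7% and 34.8% to 54.7%) included the shares over all genes. Klf4 had 13 of 24 C/EBPα peaks shared, Edn1 (endothelin 1) 7 of 10 and Pdcd1lg2 (PD-L2) 6 of 8. Klf4 thus gave 24 of the 72 C/EBPα and 34 of the 92 IRF8 peaks of this list. Only 2 of its 13 shared C/EBPα peaks lay within 100000 bp of its TSS. The 3 C/EBPα peaks of Arg1 (arginase 1) were all shared. Of the 20 genes of other lineages 9 were nearest to a peak, with 13 C/EBPα and 23 IRF8 peaks, and none lay at a promoter.

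The genes of the factors themselves were bound by both. Cebpa had 4 C/EBPα peaks and 7 IRF8 peaks. Its promoter had a C/EBPα peak at -176 bp from the TSS (score 18.4) and a separate IRF8 peak at -686 bp (score 5.02), which did not overlap. The shared sites lay 8 and 32 kb downstream, at distances of 8002 and 31710 bp, and at the farther one the IRF8 peak had a rank percentile of 88.8 within its list and the C/EBPα peak one of 21.5. Cebpd had 2 C/EBPα peaks, both shared, of which the one 2910 bp downstream scored 43.8 and overlapped a JUNB peak. Cebpg had 4 C/EBPα and 6 IRF8 peaks, with 3 shared. Ddit3, which encodes the stress factor CHOP, had 1 C/EBPα promoter peak and none of IRF8. Cebpb, Cebpe and Cebpz were nearest to no peak of either list.

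Irf8 had 7 C/EBPα peaks and 9 IRF8 peaks, of which 5 were shared. Its strongest C/EBPα peak, in intron 2 at 4782 bp from the TSS, scored 45.1 and lay without IRF8. Its strongest IRF8 peak, at -16245 bp, scored 62.6 over a C/EBPα peak of 9.36 and held an IRF motif. The distal site 56 kb downstream, at 56549 bp, was shared with scores of 16.25 and 20.1. Irf2 had 9 C/EBPα peaks, 7 of them shared, and 21 IRF8 peaks, and Irf4 had 3 and 9, with 1 shared at its promoter. Irf5 had 2 and 5, and its strongest IRF8 peak, at -72 bp from the TSS with a score of 103, had no C/EBPα peak but overlapped a JUNB peak. Irf1 had 3 and 4 peaks with 1 shared, Irf7 had 2 and 3 with 2 shared, and Irf9 had 1 shared promoter peak. Irf3 had no peak.

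Spi1, listed by the deposited annotation as Sfpi1, had 3 C/EBPα and 2 IRF8 peaks and no shared site. Its strongest C/EBPα peak lay in intron 1, 1553 bp from the TSS, with a score of 83. The IRF8 peaks lay at -12133 and -10266 bp with scores of 22.8 and 38.5. Bhlhe40 was the other lineage factor gene with peaks of both factors and none shared, with 1 and 2 peaks. The remaining genes of this list with many peaks were Maf (28 C/EBPα and 37 IRF8 peaks, 18 shared), Klf4 (24 and 34, 13 shared), Runx1 (21 and 34, 13 shared), Pparg (15 and 19, 9 shared), Mitf (14 and 18, 9 shared), Zeb2 (14 and 18, 11 shared), Tfec (9 and 10, 7 shared) and Etv3 (8 and 10, 4 shared). Many peaks of Maf, Klf4 and Zeb2 lay far away, up to 611019, 602105 and 288921 bp from the TSS. Within 100000 bp, the shared C/EBPα peaks numbered 3 at Maf, 2 at Klf4 and 2 at Zeb2. They numbered 11 at Runx1 and 9 each at Pparg and Mitf. Egr2 had 4 and 8 with 3 shared, Batf3 had 3 and 9 with 2, Bhlhe41 had 3 and 3 with 1, and Nr1h3 had 2 and 1 with 1. Id2 had 2 IRF8 peaks only. Over all 16 genes of the list, 60.4% of 154 C/EBPα peaks and 44.3% of 212 IRF8 peaks were shared.

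The strongest single peaks were not limited to shared sites. The highest scoring C/EBPα peak, in an intron of Lrrc40 (score 265), was shared with an IRF8 peak of 22.1, while the shared site near Tada1 had rank percentiles of 99.99 for C/EBPα and 99.4 for IRF8. Without IRF8, the C/EBPα peaks near Id3 (139), which encodes an inhibitor of bHLH factors, and Rcn1 (134) were both intergenic and met no IRF8 peak in either condition. Among promoter peaks of C/EBPα alone, that of Psmb3, a proteasome subunit gene, scored 126 and met an IRF8 peak after IL-4. The highest shared C/EBPα promoter peaks were at Dclre1c (153), Galnt9 (139.9) and Snx27 (138). For IRF8, the highest shared peaks were intergenic, near Gm13498 (310 over a C/EBPα peak of 121), Pla2g4a (303 over 180) and Zfhx3 (268 over 13.6). Shared promoter peaks led with Gbp7, Tnfsf13b (the B cell factor BAFF, 216 over 84.2) and Pf4 (platelet factor 4, 213 over 5.93). Without C/EBPα, the peaks in Lyn (253) and near Plxna4 (251) held composite motifs.

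JUNB, an AP-1 subunit mapped in the same resting cells with 3940 peaks, was more frequent at shared peaks. A JUNB peak overlapped 17.7% of C/EBPα peaks with IRF8 (17.1% to 18.4%) and 3.10% of those without, a difference of 14.6 points (13.9 to 15.4). For IRF8 peaks the shares were 17.8% with C/EBPα and 2.83% without (14.9 points, 14.3 to 15.6). Conversely, 88.8% of the 2841 C/EBPα peaks with JUNB also lay with IRF8. Among peaks above the median score the shares were 21.0% against 3.75% for C/EBPα and 21.8% against 3.94% for IRF8. Within score deciles the differences were 13.2 and 12.6 points.

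Finally, the lists of cells given IL-4 for 1 h served as separate libraries of the same factors. A C/EBPα peak was present after IL-4 at 85.3% of control peaks with IRF8 (84.7% to 85.9%) and 69.4% of those without (68.5% to 70.3%), a difference of 15.9 points (14.9 to 17.0). For IRF8 the shares were 87.3% with C/EBPα and 73.2% without (14.1 points, 13.3 to 14.9). Since shared peaks scored higher, the comparison was repeated within score deciles, where the differences were 6.20 points (5.32 to 7.08) and 4.97 points (4.17 to 5.77). In the lowest decile 46.6% of C/EBPα peaks with IRF8 and 37.2% of those without were found after IL-4, and 54.1% and 40.8% of IRF8 peaks. From the eighth decile upwards all classes were above 98%. With only peaks scoring at least 10 in both lists the differences were 3.11 and 1.64 points, and with lists of equal length the IRF8 difference was 4.31 points. Of the C/EBPα peaks without IRF8 in control, 19.7% met an IRF8 peak of the IL-4 list, and of the IRF8 peaks without C/EBPα 8.42% met a C/EBPα peak of the IL-4 list. The IL-4 lists had 24612 C/EBPα and 42076 IRF8 peaks, and treatment and library cannot be told apart in them.

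**Figure D5:**
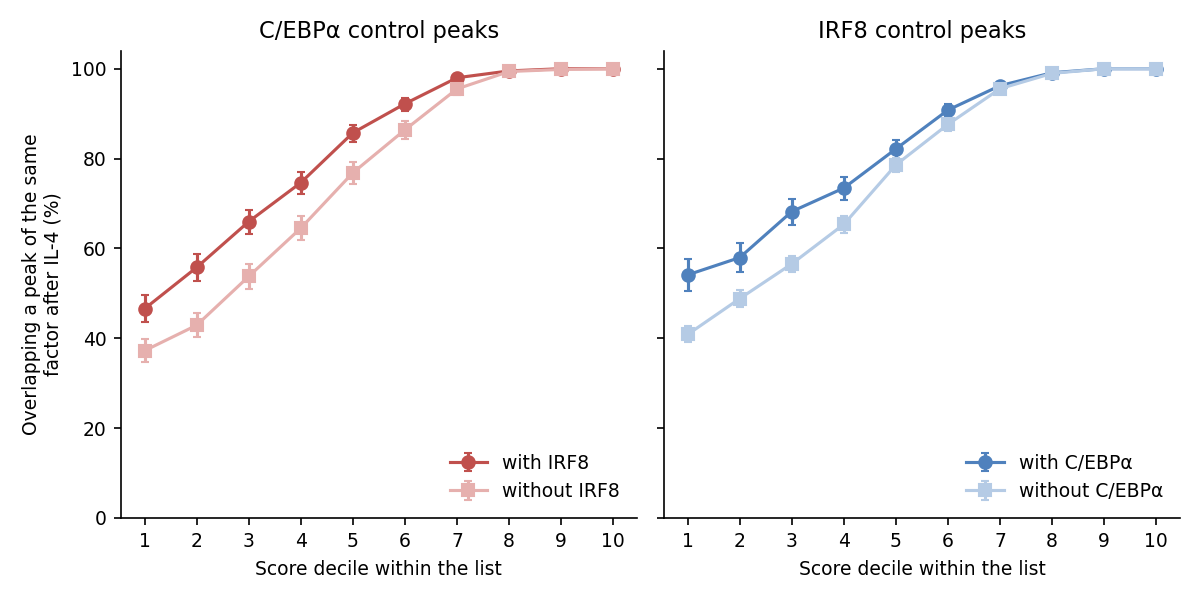
Share of control peaks, in %, that overlap a peak of the same factor after 1 h of IL-4, by score decile within the control list, for C/EBPα (left) and IRF8 (right), with (dark) and without (light) the other factor; bars are Wilson 95% intervals. In the lowest decile the shares are 46.6% and 37.2% for C/EBPα and 54.1% and 40.8% for IRF8, and the curves meet near 100% in the upper deciles.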

How the data were processed

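ChIP-seq peak lists of C/EBPα, IRF8 and JUNB from control and IL-4 treated BMDMs were used, 1 library per antibody and condition. Reads had been aligned by the authors to mm10 with BWA 0.7.10 and handled with SAMtools 0.1.19, and peaks had been called per library with MACS2 2.0.10 at a q limit of 0.01 and annotated with HOMER 4.2 (versions per the submitters' processing notes), with blacklisted regions removed. The peak score was used as deposited. Its unit is not given in the sources used here, and sequencing depth is unknown, so scores were ranked within a list. The exception was the alternative with a score of at least 10 in both lists, which set the same limit for both factors.

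Overlaps were computed in Python 3.11.15 with numpy 2.4.6, pandas 2.3.3 and scipy 1.17.1, and the overlap code was checked against bedtools 2.31.1 on simulated intervals. Position, nearest gene and promoter-TSS status were the deposited annotation. Motifs were searched in 200-bp windows of RefSeq GRCm38, and coordinates are those of the lists. A difference between classes was called where its 95% Newcombe interval left out 0. All 20 checks on simulated data with known answers came out within their limits. Genes were named as the 6 with most peaks of each class, all C/EBP, IRF and lineage factor genes, the members with most peaks of the other lists, and the genes at the 3 highest scoring peaks and promoter peaks of each class. The 12 gene lists, the members and the comparisons were chosen with earlier results of these data known, so they are described by counts. Alternatives changed the overlap rule, peak width, score limit, list length, chromosomes, condition, window and distance limits, and were set beside each difference. Some peaks and genes that this rule names are not reported here.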

Additional observations from a re-analysis of the deposited data

How the results depend on the processing

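The share of peaks with the partner moved with the settings. The differences between classes mostly kept their direction, while several changed in size. For C/EBPα the main share of 58.1% became 44.92% with a reciprocal overlap of 50%, 47.07% with centres within 100 bp, 55.81% with all peaks 200 bp wide, 45.96% with a score of at least 10 in both lists, 45.52% with lists of equal length, 60.62% in the IL-4 lists and 57.41% without simple and low-complexity repeats. For IRF8 the main share of 37.9% became 29.31%, 30.71%, 36.44%, 32.08%, 45.21%, 35.32% and 38.60% under the same settings. With chromosomes 1 to 19 only, both moved by less than their intervals. The exclusion of repeats was chosen after seeing the data. Of 174 alternative values of 18 differences between classes, 172 kept their direction and an interval without 0. The ETS motif difference of IRF8 became 1.066 points (-0.3437 to 2.488) with a score of at least 10, and the IRF8 difference in peaks near a TSS became -0.6673 points (-1.606 to 0.2671) at a limit of 50000 bp. The IL-4 differences of 15.92 points for C/EBPα and 14.12 for IRF8 fell to 3.109 and 1.636 points with a score of at least 10, and that of IRF8 was 21.71 points when the IL-4 lists replaced the control lists. The CpG island difference of IRF8 ranged from -1.261 to -0.3552 points, and its IRF motif difference of -9.047 points was -15.11 points within score deciles. The causes were not tested. No paired analysis was possible because each group had 1 sample. With no replicates, differences between antibodies, libraries and factors cannot be told apart, and the depth behind a missing peak is unknown.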

Other observations

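Transposon-derived repeats were also compared, as values. Of the 368 IRF8 peaks annotated to DNA transposons, 48.6% lay with C/EBPα (43.6% to 53.7%), against 37.9% of the whole list, while of the 375 C/EBPα peaks on DNA transposons 53.3% lay with IRF8 (48.3% to 58.3%), against 58.1%. LTR elements were the annotation of 3291 IRF8 peaks, 36.3% of them shared, and of 1918 C/EBPα peaks, 62.4% of them shared. SINE elements held 851 C/EBPα peaks, of which 49.8% were shared (46.5% to 53.2%). Low-complexity repeats held 26 C/EBPα peaks, of which 21 were shared, and 647 IRF8 peaks, of which 54 were.

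Promoter peaks were also counted by the start of the gene symbol, a grouping chosen after the values were seen. Over all genes, 750 C/EBPα promoter peaks lay with IRF8 and 934 without, and 742 IRF8 promoter peaks lay with C/EBPα and 1977 without. Symbols starting with Clec had 10 C/EBPα promoter peaks with IRF8 and 1 without. Symbols starting with H2- had 11 IRF8 promoter peaks without C/EBPα and 1 with it, and many of these genes have near-identical copies. Ribosomal protein symbols (Rpl and Rps) had 22 IRF8 promoter peaks without C/EBPα and 3 with it.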
